A study of Rattus norvegicus with 2 samples.

Results

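The genes described here encode the proteins that carry a signal from a G protein-coupled receptor into the cell and those that end it: the alpha, beta and gamma subunits of heterotrimeric G proteins, the regulators of G protein signalling (RGS proteins), the receptor kinases and the beta-arrestins. Members were chosen by gene symbol in the platform annotation (Rgs, Gnb, Gng and Gna families, Grk1 to Grk6, Arrb1 and Arrb2), by a rule that takes no measured value as input, although earlier results were known when the families were picked. They comprise 58 genes, held by 60 probe sets, of 18166 genes and 18511 probe sets with 1 symbol. Genes without a probe set assigned to them alone, among them Gnb1, Gnb4, Gnai1, Gnai3, Gng2, Gng4 and Rgs6, were not analysed here.

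Expression was measured on 2 Affymetrix whole-transcript arrays, 1 of small molecule treated rat C6 glioma cells (SMiG) and 1 of undifferentiated C6 cells (C6). C6 is an established rat glioma line, and both samples carry the same growth description, DMEM with serum. The labels disagree on the treatment: the SMiG sample lists forskolin, rapamycin and I-BET151, while a protocol field shared by both samples lists 20 µM CHIR99021 with 100 µM forskolin over 35 days. Forskolin, the only compound in both versions, activates adenylyl cyclase directly, without a receptor. With 1 array per group there was no replicate error, no test was possible and no p-value is given. All levels are log2 expression as deposited, and all differences are log2 SMiG minus C6.

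In the resting state a G protein holds GDP on its alpha subunit, bound to a beta-gamma dimer. An active receptor exchanges GDP for GTP, after which the alpha subunit and the dimer act on separate effectors: Gs raises cyclic AMP, Gi and Go lower it, Gq and G11 activate phospholipase C beta, and G12 and G13 act through a family of exchange factors. RGS proteins speed GTP hydrolysis by the alpha subunit. Receptor kinases phosphorylate active receptors, which then bind arrestins and are uncoupled and taken up by clathrin-coated pits. In brain glia these proteins serve receptors for glutamate, purines, adrenaline and lysophospholipids.

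A gene was counted as detected if it lay, on at least 1 array, above the 95th percentile of 1340 olfactory and vomeronasal receptor genes taken as silent, which was 4.96 for SMiG and 4.84 for C6. The silent genes gave a yardstick of measurement spread: the central 95% of their differences ran from −0.55 to 0.72. This range reaches further up than down and comes from dim genes, 77 of the 1340 being detected. The spread of brighter genes and the variation between cultures were not measured. Outside the range of the silent genes lay 23.4% of all detected genes and 28.6% of the detected members. As a check of the labelled cells, 9 of 9 markers of C6 and glial cells were detected on both arrays, and their differences went both ways. Cnp (difference 1.52), S100b (1.20) and Sox10 (1.01) were at least 2-fold higher in SMiG, Gja1 (−2.30) was at least 2-fold lower, and the other 5, Gfap (−0.56) among them, were within 2-fold. Astrocyte markers were detected for 0 of 3 genes, and oligodendrocyte markers for 3 of 4, all on SMiG alone and with differences from 0.28 to 0.50. All 3 differences lay inside the range of the silent genes. The SMiG levels of these 3 were close to the SMiG floor of 4.96, from 4.96 for Mog to 5.17 for Mag. Against the C6 floor they were at least 1.25-fold (Mag), 1.11-fold (Mbp) and 1.09-fold (Mog) higher. Of other cell types, 2 of 5 markers were detected for microglia, 4 of 6 for neurons, 2 of 3 for endothelium, and 2 of 3 for fibroblasts and mural cells. Of these, the neuronal marker Gad1 (difference −2.08) was at least 2-fold lower in SMiG. So were both detected fibroblast and mural markers, Pdgfrb (−2.36) and Col1a1 (−1.15). These values were in the range of the lower genes described next, and the part of these markers in those results was not tested. The other detected neuronal markers were within 2-fold, with Snap25 (0.52) and Map2 (0.21) higher and Rbfox3 (−0.18) lower. In bulk samples, fewer cells of a type and less RNA per cell cannot be told apart.

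Of the 58 genes, 35 were detected, 27 of them on both arrays, 7 on C6 alone and 1 on SMiG alone. Of all 18166 genes, 10923 were detected, 10049 on both arrays, 589 on C6 alone and 285 on SMiG alone. Among the members, the lowest differences belonged to RGS genes and an RGS anchor. The highest belonged to a receptor kinase and to alpha subunits of G11 and G12. At least 2-fold lower in SMiG were 5 genes (Rgs17, Rgs7bp, Rgs2, Gng3 and Rgs16), which is 14.3% of the detected members, against 6.52% of all 10923 detected genes. At least 2-fold higher were 3 genes (Grk5, Gna11 and Gna12), which is 8.57%, against 3.2% of all detected genes. A gene detected on C6 alone was bound to have a negative or small difference, and 3 of the 5 lower genes were of that kind. Among the 27 members above the floor on both arrays, 2-fold lower values were found for Rgs7bp and Rgs2 (2 genes) and 2-fold higher values for 3 genes, against 5.33% and 3.2% of the 10049 such genes. Counts this small give no more than a description of these arrays. The median difference of the detected members was 0.03, and that of all detected genes was −0.01. The median absolute difference was 0.44 for the detected members and 0.32 for all detected genes.

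**Figure D1:**
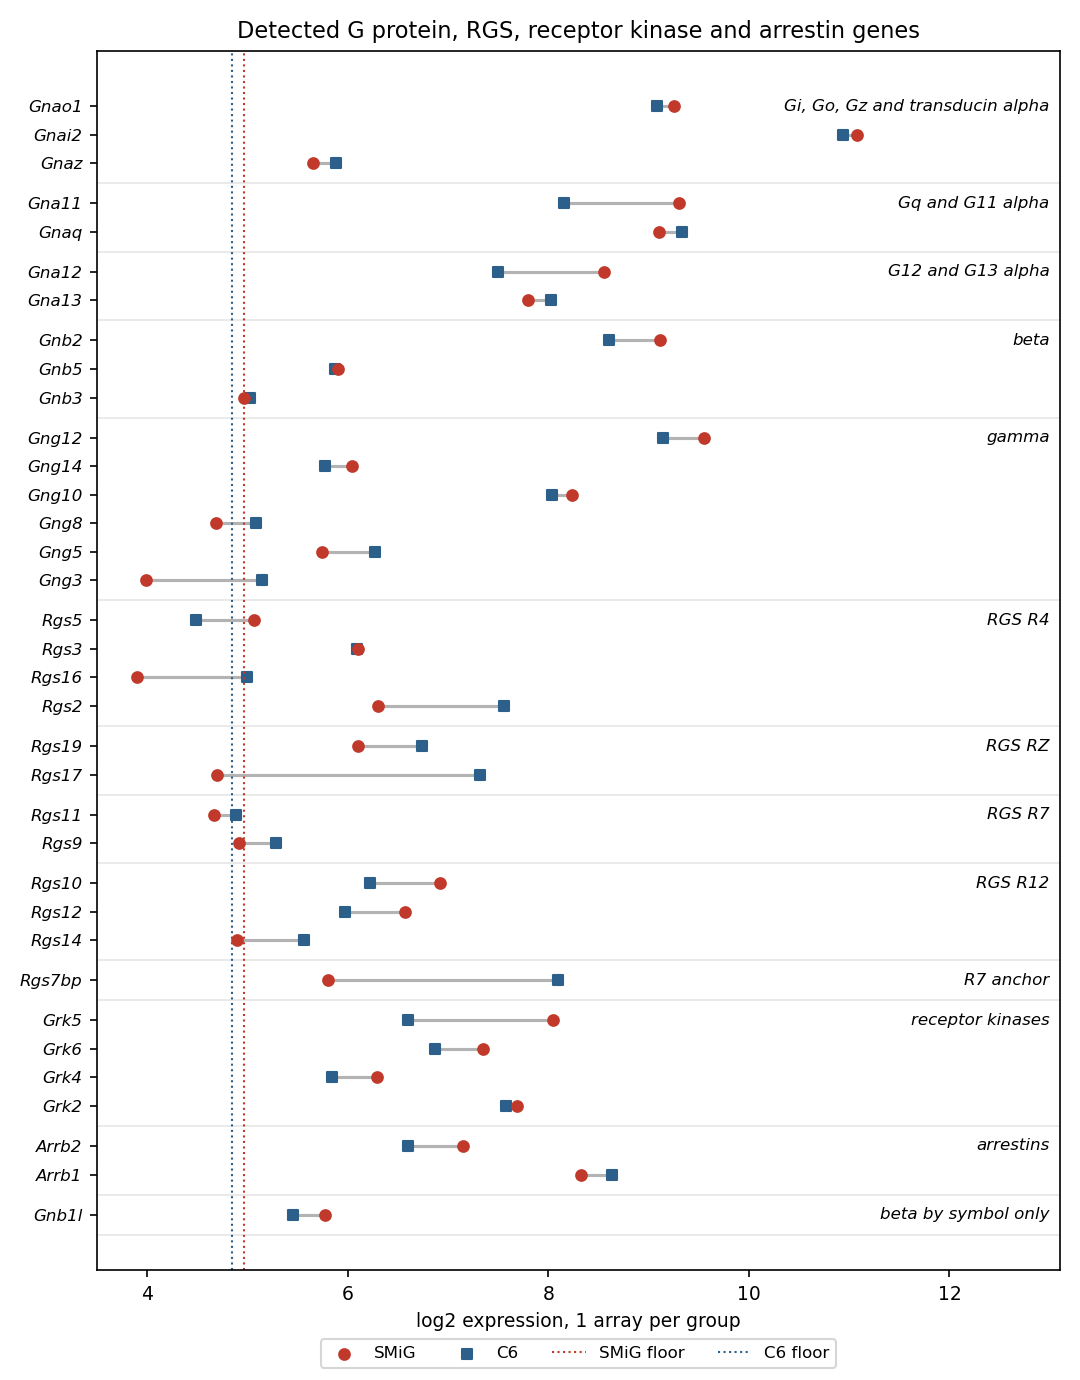
Log2 expression of the 35 detected genes on the SMiG array (circles) and the C6 array (squares), grouped by role and sorted by difference, with the detection floor of each array as a dotted line. Rgs17 and Rgs7bp have the longest gaps to the left and Grk5, Gna11 and Gna12 the longest to the right. Of the genes at least 2-fold lower, Rgs17, Gng3 and Rgs16 end below both floors in SMiG.

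Among the alpha subunits, the 7 detected genes were above the floor on both arrays. Of these, 2 passed 2-fold upwards and none downwards, beside 3.2% and 5.33% of all genes above both floors. In each of the Gq and the G12 class, 1 gene was at least 2-fold higher and its close relative was within the range of the silent genes. Gna11, encoding the alpha subunit of G11, measured 9.30 in SMiG and 8.16 in C6 (difference 1.14, 2.20-fold). Gnaq, which encodes the alpha subunit of Gq and acts on the same phospholipases, measured 9.10 in SMiG and 9.33 in C6 (difference −0.23). The other genes of the class, Gna14 and Gna15, which are used in fewer tissues, lay under the floor of each array. Gna15 lies next to Gna11 in the RefSeq gene order and was at 4.70 in SMiG and 4.26 in C6.

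Gna12, encoding the alpha subunit of G12, averaged 8.55 in SMiG and 7.50 in C6 over its 2 probe sets, which is 1.06 or 2.08-fold higher. Its probe sets had the same sign and unequal size. The brighter measured 9.73 in SMiG and 8.98 in C6 (difference 0.75), which is under 2-fold. The dimmer measured 7.38 in SMiG and 6.01 in C6 (difference 1.37). Whether Gna12 is counted as 2-fold higher therefore depends on averaging them. Gna13, whose product shares effectors with that of Gna12, measured 7.80 in SMiG and 8.02 in C6 (difference −0.23).

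The detected genes of the inhibitory class stayed within the range of the silent genes. Gnai2, encoding an inhibitory subunit found in most cells, measured 11.08 in SMiG and 10.94 in C6 (difference 0.14). Gnao1, encoding the Go subunit that is abundant in brain, measured 9.25 in SMiG and 9.09 in C6 (difference 0.17). Gnaz, encoding the Gz subunit, measured 5.66 in SMiG and 5.88 in C6 (difference −0.22). The transducin and gustducin genes Gnat1, Gnat2 and Gnat3, known from photoreceptors and taste cells, did not pass either floor.

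No level of the stimulatory class can be given. Gnas, encoding the Gs subunit used by most cell types, had 2 probe sets, and both lay at the level of silent genes. The first was at 3.92 in SMiG and 3.86 in C6. The second was at 4.45 in both samples, as 1 probe set among 1011 of 36685 probe sets (2.76%) with identical deposited values on the arrays. What part of the complex Gnas locus these probe sets match is not given in the sources used here. Gnal, encoding the olfactory form, was at 3.62 in SMiG and 3.41 in C6, below both floors.

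The beta and gamma subunits showed small differences, with Gng3 the only gene past 2-fold. Gnb2, encoding a widely used beta subunit, measured 9.12 in SMiG and 8.61 in C6 (difference 0.51). Gnb5, whose product pairs with R7 RGS proteins in place of a gamma subunit, measured 5.90 in SMiG and 5.87 in C6 (difference 0.03). Gnb3, known from cone photoreceptors, stood at the floor, at 4.97 in SMiG and 5.02 in C6. Gnb1l, whose product has WD repeats but is no known G protein subunit, came in by its symbol and was at 5.77 in SMiG and 5.45 in C6. The pseudogene Gnb1-ps1 stayed below both floors.

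Of 9 gamma genes, 6 were detected, 3 with a positive and 3 with a negative difference. Gamma subunits carry the lipid that anchors the dimer to the membrane. Gng3, known from neurons, was at 3.98 in SMiG and 5.14 in C6. Its measured difference was −1.16, but with the SMiG value below the floor the supported fold is at least 1.13-fold lower. Gng5, a broadly expressed gene, measured 5.74 in SMiG and 6.27 in C6 (difference −0.53). Gng8, known from olfactory and vomeronasal neurons, was at 4.68 in SMiG and 5.09 in C6, above the floor in C6 alone. On the other side were Gng12 at 9.55 in SMiG and 9.15 in C6, Gng10 at 8.24 in SMiG and 8.03 in C6, and Gng14 at 6.04 in SMiG and 5.77 in C6. Their differences of 0.40, 0.21 and 0.28 lay inside the range of the silent genes.

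**Figure D2:**
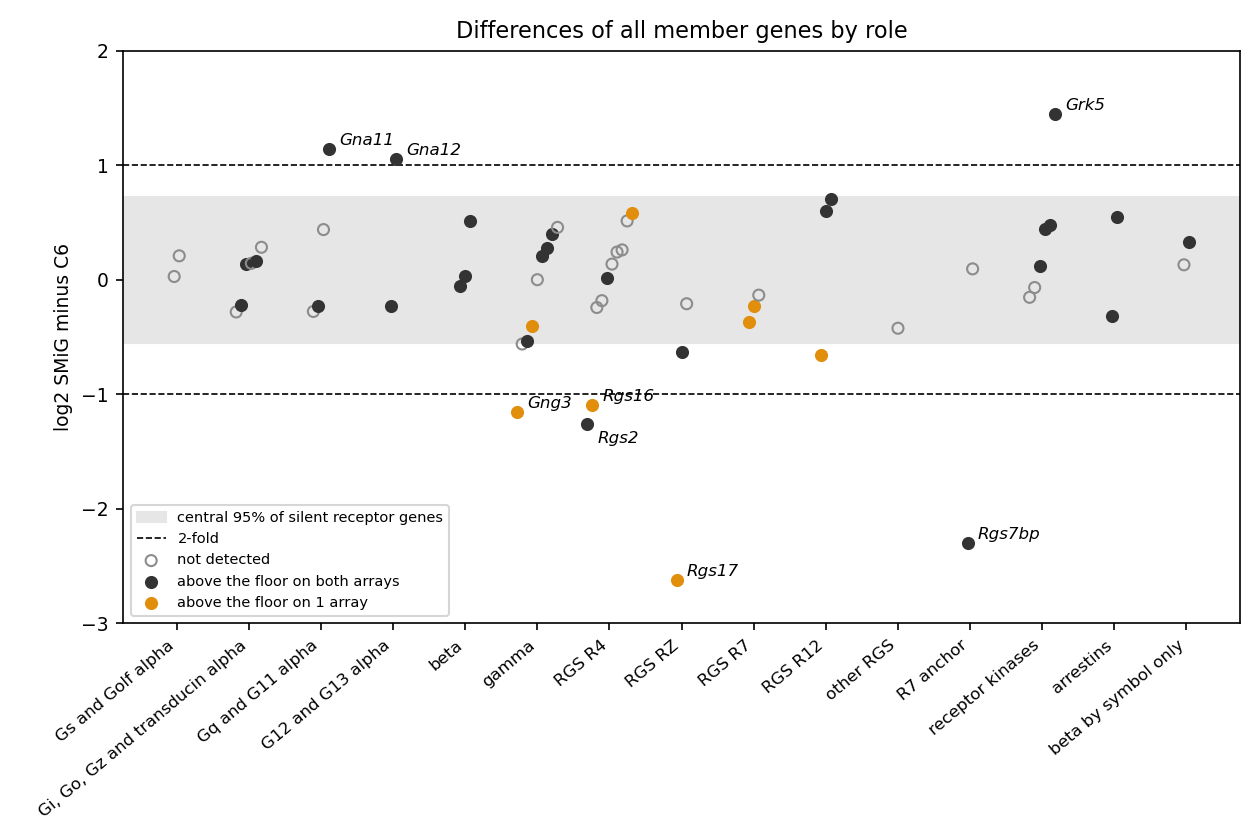
Log2 SMiG minus C6 for all 58 genes by role, with filled black points for genes above the floor on both arrays, orange for 1 array and open circles for genes not detected; the grey band is the central 95% of the silent receptor genes and the dashed lines mark 2-fold. The 8 genes past 2-fold are named. Every detected receptor kinase lies above 0, and all of them but Grk5 lie inside the grey band.

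Of 20 RGS genes, 11 were detected, 5 of them on both arrays and 5 on C6 alone, and 7 of the 11 had a negative difference. Among all 10923 detected genes, 589 were detected on C6 alone and 5498 had a negative difference. At least 2-fold lower were 3 of the 11 and higher none, beside 6.52% and 3.2% of all detected genes. Rgs17 and Rgs16 were counted through their C6 level alone, and of the 5 RGS genes above the floor on both arrays Rgs2 alone was 2-fold lower, with a median difference of 0.016 over the 5. Rgs17 had the lowest difference of all members. It belongs with Rgs19 and Rgs20 to the RZ subfamily, which acts on Gz and Gi. Rgs17 measured 4.69 in SMiG and 7.32 in C6 (difference −2.63). The SMiG value was below the floor, so the supported fold is at least 5.11-fold lower, and 55 of the 10923 detected genes had a lower difference. Rgs19 measured 6.10 in SMiG and 6.73 in C6 (difference −0.63), and Rgs20 lay under the floor of each array. The Rgs19 difference was within 2-fold and just outside the range of the silent genes.

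In the R4 subfamily, made of short proteins that act on Gi and Gq, 4 of 10 genes were detected. Rgs2, a regulator with a preference for Gq, measured 6.30 in SMiG and 7.56 in C6 (difference −1.26, 2.40-fold), above the floor on both arrays. Rgs16 was at 3.90 in SMiG and 4.99 in C6. Its measured difference of −1.09 passes 2-fold, but the supported fold is only at least 1.02-fold lower because the C6 value is itself just above the floor. Rgs3 measured 6.10 in SMiG and 6.09 in C6 (difference 0.02). Rgs5, known as a marker of pericytes, was at 5.07 in SMiG and 4.49 in C6, above the floor in SMiG alone. Rgs4, a regulator common in neurons, did not pass either floor, at 3.78 in SMiG and 3.26 in C6. In the RefSeq gene order Rgs2, Rgs13, Rgs1, Rgs21 and Rgs18 stand next to each other with 0 protein-coding genes between neighbours, and of these only Rgs2 was detected. Rgs16 likewise adjoins Rgs8 and Rgs5 adjoins Rgs4, and neither Rgs8 nor Rgs4 was detected.

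Since forskolin stands in both versions of the treatment, the promoters of the members were searched for the cyclic AMP response element, the binding site of CREB. The searched motifs were the full element of 8 bases, TGACGTCA, which is its own reverse complement, and its core of 5 bases, TGACG or CGTCA on the other strand, which the full element contains. Each promoter covered 250 bases before to 50 after the gene start (RefSeq, GRCr8), and 44 members had at least 1. The core was present in 11 of these 44 (25.0%), against 21.2% of all 33469 promoters in the table. The full element was present in 1 of 44, Gnao1, against 1.83% of all promoters. A member counted if any of its promoters held a match, whereas the shares of all were taken over single promoters. Gnas alone had several promoters, and it counted for the core through 1 of them. Of the 8 members past 2-fold, all in the table, Rgs2 alone held the core, as did 6 of the 19 detected members within 2-fold. The promoters of Rgs2, the member past 2-fold that holds the core, and of Gnao1, the member with the full element and a difference of 0.17, are shown 5′ to 3′ on the gene's strand, with each match in capitals. Rgs2 (chr13:58352617-58352916, minus strand) has its match starting 216 bases before the gene start, and Gnao1 (chr19:11198388-11198687, minus strand) has matches starting 190 and 121 bases before it, and the match nearer to the start is the full element.
Rgs2: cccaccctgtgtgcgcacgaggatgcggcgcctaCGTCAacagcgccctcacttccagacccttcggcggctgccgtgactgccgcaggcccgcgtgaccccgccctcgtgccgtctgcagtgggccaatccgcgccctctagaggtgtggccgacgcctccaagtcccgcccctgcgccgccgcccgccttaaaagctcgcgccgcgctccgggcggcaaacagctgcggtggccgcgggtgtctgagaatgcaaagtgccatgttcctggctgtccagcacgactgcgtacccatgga
Gnao1: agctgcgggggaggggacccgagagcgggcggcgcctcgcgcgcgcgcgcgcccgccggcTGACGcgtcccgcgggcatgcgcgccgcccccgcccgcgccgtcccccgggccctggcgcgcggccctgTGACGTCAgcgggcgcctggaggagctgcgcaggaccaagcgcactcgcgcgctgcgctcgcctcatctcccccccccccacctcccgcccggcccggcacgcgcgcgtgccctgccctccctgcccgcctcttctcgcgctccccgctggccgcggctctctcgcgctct
A match of these letters is a description and not a measured binding site.

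The R7 subfamily forms stable complexes with Gnb5, and Rgs7bp anchors these complexes to the membrane. Rgs7bp was at 5.80 in SMiG and 8.10 in C6, above the floor on both arrays, a difference of −2.30 or 4.93-fold. Only 98 of the detected genes had a lower difference. Among the partners of Rgs7bp, Gnb5 differed by 0.03 as given above, Rgs9 was at 4.92 in SMiG and 5.28 in C6, and Rgs11 was at 4.66 in SMiG and 4.89 in C6, the last 2 above the floor in C6 alone and too close to it to show a gap of that size. Rgs7 stayed below both floors, and so did Rgs9bp, the anchor known from the retina. Rgs6 had no probe set of its own and was not analysed.

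The R12 subfamily, which acts on Gi and Go, was split. Rgs10 measured 6.92 in SMiG and 6.22 in C6 (difference 0.70), and Rgs12 measured 6.57 in SMiG and 5.97 in C6 (difference 0.60). Both lay just inside the range of the silent genes. Rgs14, which like Rgs12 also holds a motif that binds GDP-loaded Gi alpha, was at 4.90 in SMiG and 5.56 in C6, at least 1.51-fold lower with the SMiG value below the floor. Rgs22, a member with several RGS domains known from testis, lay under the floor of each array.

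Among the receptor kinase genes, Grk5 was at least 2-fold higher in SMiG and none was 2-fold lower, beside 3.2% and 6.52% of all detected genes. All 4 detected kinase genes had positive differences, from 0.12 to 1.45, and were above the floor on both arrays. Of all 10923 detected genes, 5342 had a positive difference. Grk5, whose kinase binds membrane lipids and calmodulin, measured 8.05 in SMiG and 6.60 in C6 (difference 1.45, 2.73-fold). Of the detected genes, 110 had a higher difference. Grk6, of the same subfamily, measured 7.35 in SMiG and 6.87 in C6 (difference 0.48), and Grk4, known mainly from testis, measured 6.29 in SMiG and 5.84 in C6 (difference 0.44). Grk2, whose kinase is brought to the membrane by the beta-gamma dimer, measured 7.69 in SMiG and 7.58 in C6 (difference 0.12). Grk3, its close relative, and Grk1, known from the retina, did not pass either floor. The differences of Grk6, Grk4 and Grk2 lay inside the range of the silent genes, so that Grk5 alone exceeded it.

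The beta-arrestins differed in sign. Arrb2 measured 7.15 in SMiG and 6.60 in C6 (difference 0.55), whereas Arrb1 measured 8.32 in SMiG and 8.64 in C6 (difference −0.31). Both differences lay inside the range of the silent genes.

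**Figure D3:**
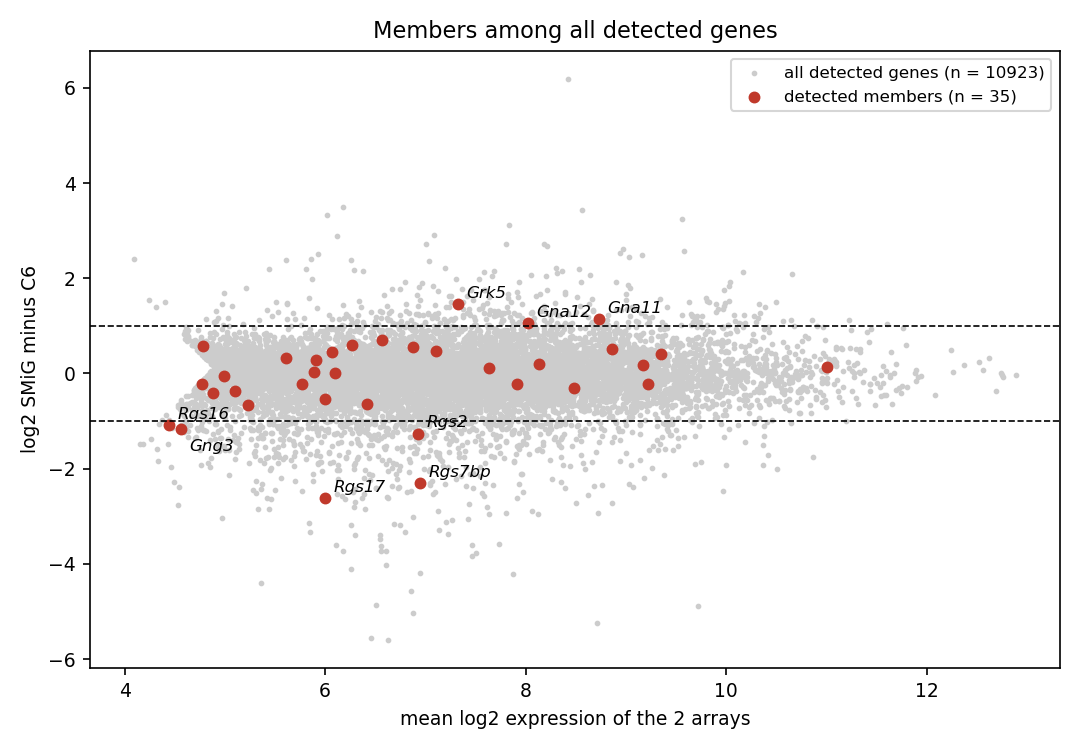
Log2 SMiG minus C6 against the mean log2 expression of the arrays for the 10923 detected genes (grey) and the 35 detected members (red), with dashed lines at 2-fold. Rgs17 and Rgs7bp lie in the lower tail of the cloud, Rgs16 and Gng3 at its dim end, and Grk5, Gna11 and Gna12 above the upper line.

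Proteins that act with G proteins were described from a list of 69 genes, of which 65 had a probe set with 1 symbol and 49 were detected. Of the 49, 3 passed 2-fold downwards and 3 upwards, beside the 6.52% and 3.2% of all detected genes. The median difference was −0.07. Of the phospholipase C beta genes, effectors of Gq, 2 of 3 detected were at least 2-fold lower. Plcb1, encoding phospholipase C beta 1, measured 7.09 in SMiG and 8.51 in C6 (difference −1.42), and Plcb4 measured 7.08 in SMiG and 8.11 in C6 (difference −1.03, and −0.99 after quantile normalization). Plcb3, named with its value known, differed by −0.12, and Plcb2 stayed below both floors. The gene Gna11 was thus higher in SMiG while the phospholipase genes Plcb1 and Plcb4 were lower. Gnaq (difference −0.23) and Plcb3 (−0.12) lay inside the range of the silent genes.

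Effectors of the beta-gamma dimer and of other classes pointed both ways. Prex1, encoding a Rac exchange factor that the dimer activates, measured 8.42 in SMiG and 7.15 in C6 (difference 1.27, 2.41-fold). Rap1gap, whose product ends Rap1 signalling, measured 6.28 in SMiG and 5.41 in C6 (difference 0.87). Of the exchange factors driven by G12 and G13, Arhgef11 measured 8.29 in SMiG and 7.66 in C6 (difference 0.63), within 2-fold. Arhgef12 and Arhgef1, named with their values known, differed by 0.30 and −0.47. Of 8 adenylyl cyclase genes with a probe set of their own, Adcy6 and Adcy7 were detected. Adcy6 measured 6.81 in SMiG and 7.33 in C6 (difference −0.51), and Adcy7, named with its value known, differed by 0.23.

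Among chaperones and other regulators of G proteins and their receptors, 2 of 14 detected genes passed 2-fold upwards and none downwards. The shares of all detected genes were 3.2% and 6.52%. Gpsm1, whose product AGS3 holds Gi alpha in its GDP form, measured 7.42 in SMiG and 6.30 in C6 (difference 1.12). Ncdn, encoding neurochondrin, which binds metabotropic glutamate receptors, measured 8.92 in SMiG and 7.86 in C6 (difference 1.06). Kctd12, encoding an auxiliary subunit of GABA-B receptors, was at 5.98 in SMiG and 5.43 in C6. Ric8a, encoding a folding chaperone of several alpha subunits, was at 6.55 in SMiG and 7.05 in C6, and Pdcl, which helps assemble the beta-gamma dimer, at 7.97 in SMiG and 7.70 in C6.

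Of the enzymes that attach and process the lipid of gamma subunits, none of 5 passed 2-fold. Pggt1b, encoding the beta subunit of the enzyme that adds a geranylgeranyl group, measured 7.32 in SMiG and 8.17 in C6 (difference −0.85). Fnta, encoding the alpha subunit that this enzyme shares with farnesyltransferase, measured 9.94 in SMiG and 9.32 in C6 (difference 0.63). Icmt, which methylates the prenylated cysteine, differed by 0.31.

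None of the 9 detected genes for cyclic AMP sensors, protein kinase A subunits and inhibitors of this kinase passed 2-fold. Of all detected genes, 6.52% passed it downwards and 3.2% upwards. The differences of the 9 ran from −0.66 to 0.06. The lowest were Rapgef3, encoding the cyclic AMP sensor EPAC1, at 5.04 in SMiG and 5.70 in C6, Pkia, encoding an inhibitor of protein kinase A, at 4.66 in SMiG and 5.30 in C6, and the kinase subunit gene Prkar1b at 4.79 in SMiG and 5.35 in C6. Pkia and Prkar1b were above the floor in C6 alone.

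Of 9 genes of receptor uptake, 1 passed 2-fold downwards and none upwards, beside 6.52% and 3.2% of all detected genes. Dnm1, encoding the dynamin typical of neurons, was at 4.95 in SMiG and 7.65 in C6. With the SMiG value just below the floor it was at least 6.43-fold lower. Dnm2, encoding the dynamin found in most tissues, measured 9.37 in SMiG and 8.55 in C6 (difference 0.81). Mdm2, whose product ubiquitinates beta-arrestin, measured 7.87 in SMiG and 8.87 in C6, just within 2-fold, and the clathrin heavy chain gene Cltc differed by −0.39.

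**Figure D4:**
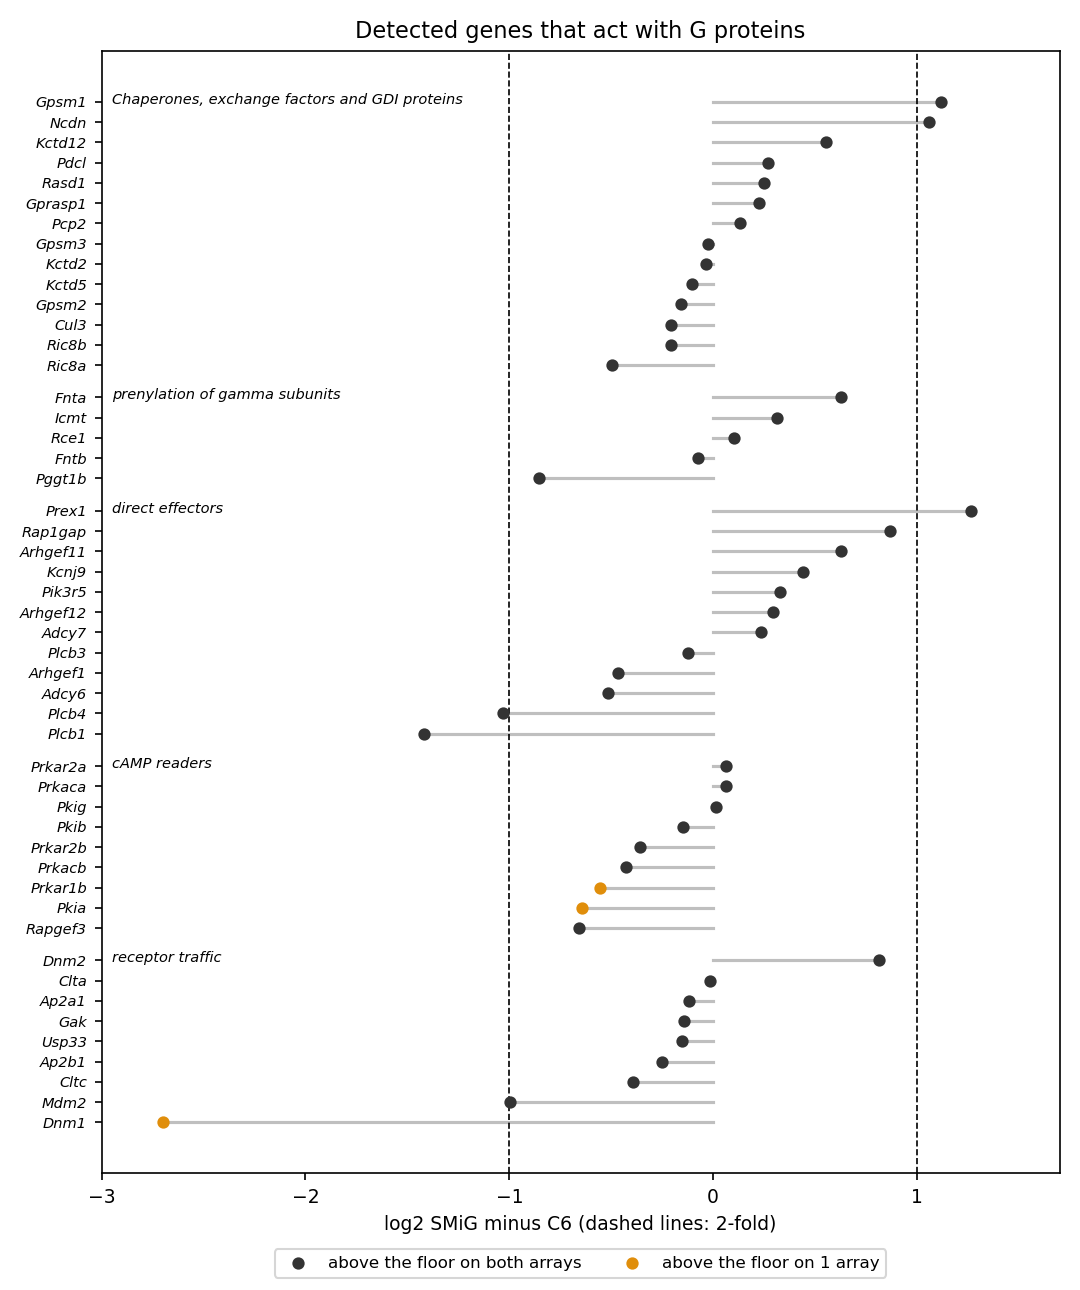
Log2 SMiG minus C6 for the 49 detected genes that act with G proteins, grouped by function, with black points for genes above the floor on both arrays, orange points for 1 array and dashed lines at 2-fold. Dnm1, Plcb1 and Plcb4 lie beyond the left line and Prex1, Gpsm1 and Ncdn beyond the right one.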

How the data were processed

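Total RNA of 1 SMiG and 1 C6 sample was extracted with Trizol, and sense cDNA was fragmented, labelled with biotin and hybridised, per the labels' protocols. The authors' deposited table gives 36685 probe sets with a value for each array, taken as log2 expression. The base follows from the range: values reach 13.1, whereas natural logs of 16-bit scanner readings end at 11.1. How background, probe summary and normalization were handled is not given in the sources used here. Column medians were 4.86 (SMiG) and 4.84 (C6), and nothing was rescaled.

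Of the probe sets, 18511 had 1 symbol in the platform annotation, 575 several and 17599 none, and genes were named from the first kind alone. Probe sets of a gene were averaged. Gene numbers matched RefSeq (GRCr8) for 58 of 58 members, with 0 symbols changed. Silent genes had symbols of the Olr, Or and Vom families. Where the dimmer array was below its floor, a fold is the brighter value against that floor, given as at least that fold.

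Members and lists were chosen with earlier results of these data known: the families were picked first, and their genes then taken by symbol. Named members are those past 2-fold, in each role the 3 with the largest difference and the 3 with the highest level, 10 listed genes (Gnb1 could not be analysed) and any whose probe sets disagree; partners are those past 2-fold and up to 3 more per group. Others are said to be named after their values were seen, or are given by count or as not detected. The alternatives concerned the floor, centring, lowess (span 0.3), quantile normalization, probe sets and the fold threshold. The number of arrays limits the precision. The counting was tried on simulated data with planted differences and the spread of the silent genes, as a check of the code only. That run says nothing of the spread of brighter genes or between cultures. Python 3.11.15, numpy 2.4.6, pandas 2.3.3, statsmodels 0.14.6 and matplotlib 3.10.9 were used.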

Additional observations from a re-analysis of the deposited data

How the results depend on the processing

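No paired analysis was possible because each group has 1 array, and leaving out an array would end the comparison. The count of members at least 2-fold lower was 5 of 35 as reported. With the floor at the 99th percentile it was 3 of 24, beside 7.47% of all detected genes. With the mean of the arrays above the mean floor it was 3 of 30, beside 6.36%. With low values set to the floor it was 3 of 35, beside 5.76%. With only genes above the floor on both arrays it was 2 of 27, beside 5.33%. In each of these alternatives Rgs16 and Gng3 dropped out, and in the last Rgs17 as well. With a threshold of 3-fold, 2 were lower (Rgs17 and Rgs7bp) and 0 higher, beside 2.51% and 0.73% of all detected genes. With 1.5-fold, 7 were lower and 5 higher, beside 15.1% and 10.4% of all detected genes. The count of 3 higher became 2 with the brightest probe set of each gene, which put Gna12 at 0.75. The median difference of the members, 0.03, was 0.19 at the stricter floor, 0.17 on both arrays and 0.13 with the mean floor, where fewer genes enter. The median of the genes that act with G proteins, −0.07, was −0.12 at the stricter floor and −0.016 after quantile normalization, which also put Plcb4 at −0.99. Under median centring, lowess, quantile normalization and the brightest probe set, the 57 named genes shifted by at most 0.31, and no other of their calls changed. A floor from the Olr and Vom symbols alone, chosen after seeing the data, gave 5 lower and 3 higher of 34. The shares of all detected genes were then 6.39% and 3.16%. With 1 array per group, differences within the range of the silent genes cannot be told from the measurement spread of those dim genes. The spread at higher levels was not measured, and no difference inside or outside the range was tested.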
